A study of Homo sapiens with 8 samples.

Results

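The genes described here are 8 members of the unfolded protein response (UPR), the signalling system that adjusts protein folding in the endoplasmic reticulum (ER) to its load. They comprise the ER stress sensors ERN1, EIF2AK3, ATF6 and ATF6B, the protease gene MBTPS1, and the proximal targets XBP1, DNAJB9 and DNAJC3. They were chosen by gene name from the deposited tables of gene expression, which list 31582 genes for the inhibitor arm and 28942 for the knockdown arm, with 26360 genes in both. All 8 members were listed in both tables as protein-coding genes, and all 8 passed the filter on low values in each of the 9 comparisons.

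RNA-seq was performed on Kyse510, an established human esophageal squamous cell carcinoma (ESCC) cell line, in 8 libraries, 1 for each condition. The pharmacological arm held cells grown for 2 days with vehicle (labelled DMSO), with 7 µM SP2509, an inhibitor of the histone demethylase LSD1, with 7 µM UNC0642, an inhibitor of the histone methyltransferase G9a, or with SP2509 and UNC0642 together, for which no separate dose is given. In the genetic arm, Kyse510 cells carried a doxycycline (Dox)-inducible shRNA against LSD1 (shLSD1) or G9a (shG9a), were selected in puromycin over 14 days, and then received either no Dox or Dox over 2 days. The labels give an untreated library of each line, which served as its control, whereas the study's text names cells with a nonsilencing shRNA as the control of its knockdown differences. The labels were followed, so each knockdown ratio is Dox over no Dox within a line, and no library of Dox-treated cells lacking these hairpins was analysed here. In both lines Dox and the induced hairpin cannot be told apart. With 1 library per condition there was no spread between replicates, so no p-value is given and every difference is a difference between libraries.

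As background, IRE1α (encoded by ERN1), PERK (EIF2AK3) and ATF6 are ER membrane proteins that sense unfolded proteins in the ER lumen, where the chaperone BiP (HSPA5) binds and restrains them. Active IRE1α splices XBP1 mRNA so that it encodes the transcription factor XBP1s, PERK phosphorylates the initiation factor eIF2α and slows translation, and ATF6 travels to the Golgi, where site-1 protease (MBTPS1) makes the first cut that frees its transcription factor domain. The products of these branches include the co-chaperones encoded by DNAJB9 and DNAJC3, which feed back on the sensors.

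The stretches upstream of XBP1, DNAJB9 and DNAJC3 are shown because these members are the transcriptional targets of the response, and ER stress elements are described in promoters of such targets. Each is the 250 bases before a transcript start on the gene's strand, 5′ to 3′, from RefSeq (GRCh38.p14). XBP1 lies at chr22:28800570-28800819 on the minus strand, DNAJB9 at chr7:108569624-108569873 on the plus strand, and DNAJC3 at chr13:95676889-95677138 on the plus strand. Capitals mark CCACG or its reverse complement CGTGG and, for XBP1, also the CCAAT that begins the ER stress element.
XBP1: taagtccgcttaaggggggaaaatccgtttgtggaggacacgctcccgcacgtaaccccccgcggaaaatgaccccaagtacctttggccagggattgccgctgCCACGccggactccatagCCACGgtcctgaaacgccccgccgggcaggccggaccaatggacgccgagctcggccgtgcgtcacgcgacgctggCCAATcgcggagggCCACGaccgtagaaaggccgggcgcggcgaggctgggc
DNAJB9: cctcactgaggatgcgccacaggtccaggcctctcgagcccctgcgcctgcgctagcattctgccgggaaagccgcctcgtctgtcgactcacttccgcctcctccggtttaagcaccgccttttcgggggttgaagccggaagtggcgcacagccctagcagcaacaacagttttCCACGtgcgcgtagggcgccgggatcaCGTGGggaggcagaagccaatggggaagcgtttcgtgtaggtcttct
DNAJC3: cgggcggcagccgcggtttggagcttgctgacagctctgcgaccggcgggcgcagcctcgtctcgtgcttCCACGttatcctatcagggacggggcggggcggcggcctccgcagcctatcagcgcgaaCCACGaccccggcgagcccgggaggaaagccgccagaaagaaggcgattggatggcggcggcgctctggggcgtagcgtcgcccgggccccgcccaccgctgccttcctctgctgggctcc

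The windows searched for motifs ran from 250 bases before to 50 bases after each start, on both strands, over 35093 such windows of all genes. The ER stress element, CCAAT followed after 9 bases by CCACG, was present upstream of XBP1, at positions -52 to -34 from the start, and in none of the other 7 members, whereas 0.0769% of all windows held it. The XBP1 window in question was the first of the pair listed for this gene. A related element, ATTGG followed after 1 base by CCACG (0.0541% of all windows) and the UPR element TGACGTGG (0.729%) were in no window of a member. The parts of the ER stress element were common on their own, since CCACG was in 5 of 8 members and 38.1% of all windows and CCAAT, which is contained in that element, was in 6 of 8 members and 34.6% of all windows. The motif TGATGNAA was in no member and in 3.62% of all windows. These are matches of letters within a window and do not show whether a factor binds there.

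The library totals recovered from the values ranged from 15662035 to 17889466 reads. KDM1A, which encodes LSD1, was at 26.0 FPKM in the shLSD1 line without Dox and 6.29 with Dox, and at 26.4 and 35.8 FPKM in uninduced and induced shG9a cells. EHMT2, which encodes G9a, was at 7.85 FPKM in the shG9a line without Dox and 4.76 with Dox, and its log2 fold change with Dox in the shLSD1 line had an interval from -0.12 to 0.11. In the inhibitor arm KDM1A ranged from 32.0 to 40.7 FPKM, and EHMT2 was at 11.1 FPKM under vehicle, 10.2 under SP2509, 10.3 under UNC0642 and 5.38 under both. Of 10 squamous epithelial markers, 8 to 10 reached 1 FPKM in every library, with a summed level between 600 FPKM in the induced shLSD1 library and 4874 FPKM in the SP2509 library. The highest single marker was at 265 FPKM in the former and 3716 FPKM in the latter, so the sum does not describe the markers evenly. Of 11 markers of other cell types, 1 or 2 reached 1 FPKM, and their summed level was between 3.64 and 8.02 FPKM. The part of these markers in the results below was not tested.

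Levels are given as FPKM, fragments per kilobase of gene length scaled to library size, a scale on which genes of different length can be compared. The tables of the arms were made separately, so levels are set side by side across the arms and no call was made between them. Intervals in this text are 95% counting intervals from the recovered reads, which cover counting error only. In bulk RNA, fewer cells expressing a gene and less of its RNA per cell cannot be told apart. ERN1 (ENSG00000178607, chromosome 17, 64039142 to 64130819, minus strand, GRCh38), the gene of IRE1α, was the lowest member in 7 of the 8 libraries. It was at 4.84 FPKM under vehicle, 1.53 under SP2509, 1.78 under UNC0642 and 4.88 under both inhibitors. In the shLSD1 line it was at 2.84 FPKM without Dox and 3.14 with Dox, and in the shG9a line at 3.51 without Dox and 1.09 with Dox. The single-inhibitor libraries and the induced shG9a library were low, and their intervals, of which the highest upper bound was 1.98 FPKM, lay below those of the other 5 libraries, of which the lowest bound was 2.60 FPKM.

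EIF2AK3 (ENSG00000172071, chromosome 2, 88556741 to 88627576, minus strand) encodes PERK, which phosphorylates eIF2α. It was at 8.21 FPKM under vehicle, 3.37 under SP2509, 3.04 under UNC0642 and 7.70 under both inhibitors. It was at 3.22 FPKM without and 2.90 with Dox in the shLSD1 line, and at 3.53 without and 2.31 with Dox in the shG9a line. As for ERN1, the single-inhibitor libraries were below vehicle and the combination library was near vehicle. The intervals of the combination and of vehicle overlapped, at 7.14 to 8.29 and 7.62 to 8.85 FPKM. Unlike for ERN1, the single-inhibitor intervals, 3.01 to 3.76 with SP2509 and 2.71 to 3.41 with UNC0642, overlapped those of the uninduced lines. The latter were 2.88 to 3.60 FPKM for shLSD1 and 3.15 to 3.94 for shG9a.

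ATF6 (ENSG00000118217, chromosome 1, 161766294 to 161964070, plus strand) encodes the sensor that becomes a transcription factor once cut in the Golgi. It was at 18.6 FPKM under vehicle, 12.0 under SP2509, 12.6 under UNC0642 and 9.42 under both inhibitors, so that here the combination library was the lowest of the arm. In the shLSD1 line ATF6 was at 15.0 FPKM without and 14.5 with Dox, and in the shG9a line at 15.7 without and 9.88 with Dox. ATF6B (ENSG00000213676, chromosome 6, minus strand) encodes the paralog of ATF6 and spans 32098176 to 32128253 in the inhibitor table and 32115264 to 32128253 in the knockdown table. ATF6B was at 26.4 FPKM under vehicle, 19.2 under SP2509, 19.3 under UNC0642 and 9.91 under both. In the genetic arm it was at 20.0 and 22.8 FPKM in the shLSD1 line without and with Dox, and at 19.4 and 23.8 in the shG9a line. The wider span in the inhibitor table overlaps TNXB over 17159 bases, a gene at 0.0644 to 0.569 FPKM in that arm. In the knockdown table the overlap with TNXB, at 0.0682 to 0.191 FPKM, is 71 bases.

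MBTPS1 (ENSG00000140943, chromosome 16, 84053761 to 84116906, minus strand) encodes site-1 protease, which cuts ATF6 and other membrane-bound transcription factors. It was at 14.1 FPKM under vehicle, 11.9 under SP2509, 14.3 under UNC0642 and 16.9 under both inhibitors. It was at 11.6 and 14.8 FPKM without and with Dox in the shLSD1 line, and at 11.5 and 15.1 in the shG9a line. The ratio of its highest to its lowest level over the 8 libraries was 1.47, against 1.97 for ATF6, 2.67 for ATF6B, 3.55 for XBP1, 3.56 for EIF2AK3, 4.46 for ERN1, 5.58 for DNAJC3 and 7.29 for DNAJB9.

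XBP1 (ENSG00000100219, chromosome 22, 28794555 to 28800597, minus strand) was the most abundant member in all 8 libraries. It was at 77.2 FPKM under vehicle, 38.5 under SP2509, 24.3 under UNC0642 and 39.7 under both inhibitors. In the shLSD1 line XBP1 was at 61.4 FPKM without and 86.2 with Dox, whereas in the shG9a line it was at 68.6 without and 29.0 with Dox. A level for the whole gene does not separate spliced from unspliced XBP1 mRNA, so IRE1α activity was not measured by these values.

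DNAJB9 (ENSG00000128590, chromosome 7, 108569568 to 108574850, plus strand) encodes ERdj4, a J-domain co-chaperone that recruits BiP to IRE1α and is itself a target of XBP1s. It was at 23.6 FPKM under vehicle, 5.31 under SP2509, 3.23 under UNC0642 and 20.0 under both inhibitors. It was at 11.2 FPKM without and 16.1 with Dox in the shLSD1 line, and at 15.3 without and 4.58 with Dox in the shG9a line. DNAJB9 shares 99 bases with PNPLA8 and 183 bases with THAP5 on the opposite strand, and the use of strand in counting is not given in the sources used here. DNAJC3 (ENSG00000102580, chromosome 13, 95677139 to 95794989, plus strand) encodes p58IPK, a co-chaperone of BiP first described as an inhibitor of eIF2α kinases. It was at 34.6 FPKM under vehicle, 6.21 under SP2509, 8.03 under UNC0642 and 12.9 under both. It was at 14.6 and 12.7 FPKM in the shLSD1 line without and with Dox, and at 18.1 and 6.74 in the shG9a line. Unlike ERN1, EIF2AK3 and DNAJB9, DNAJC3 remained well below vehicle in the combination library.

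**Figure D1:**
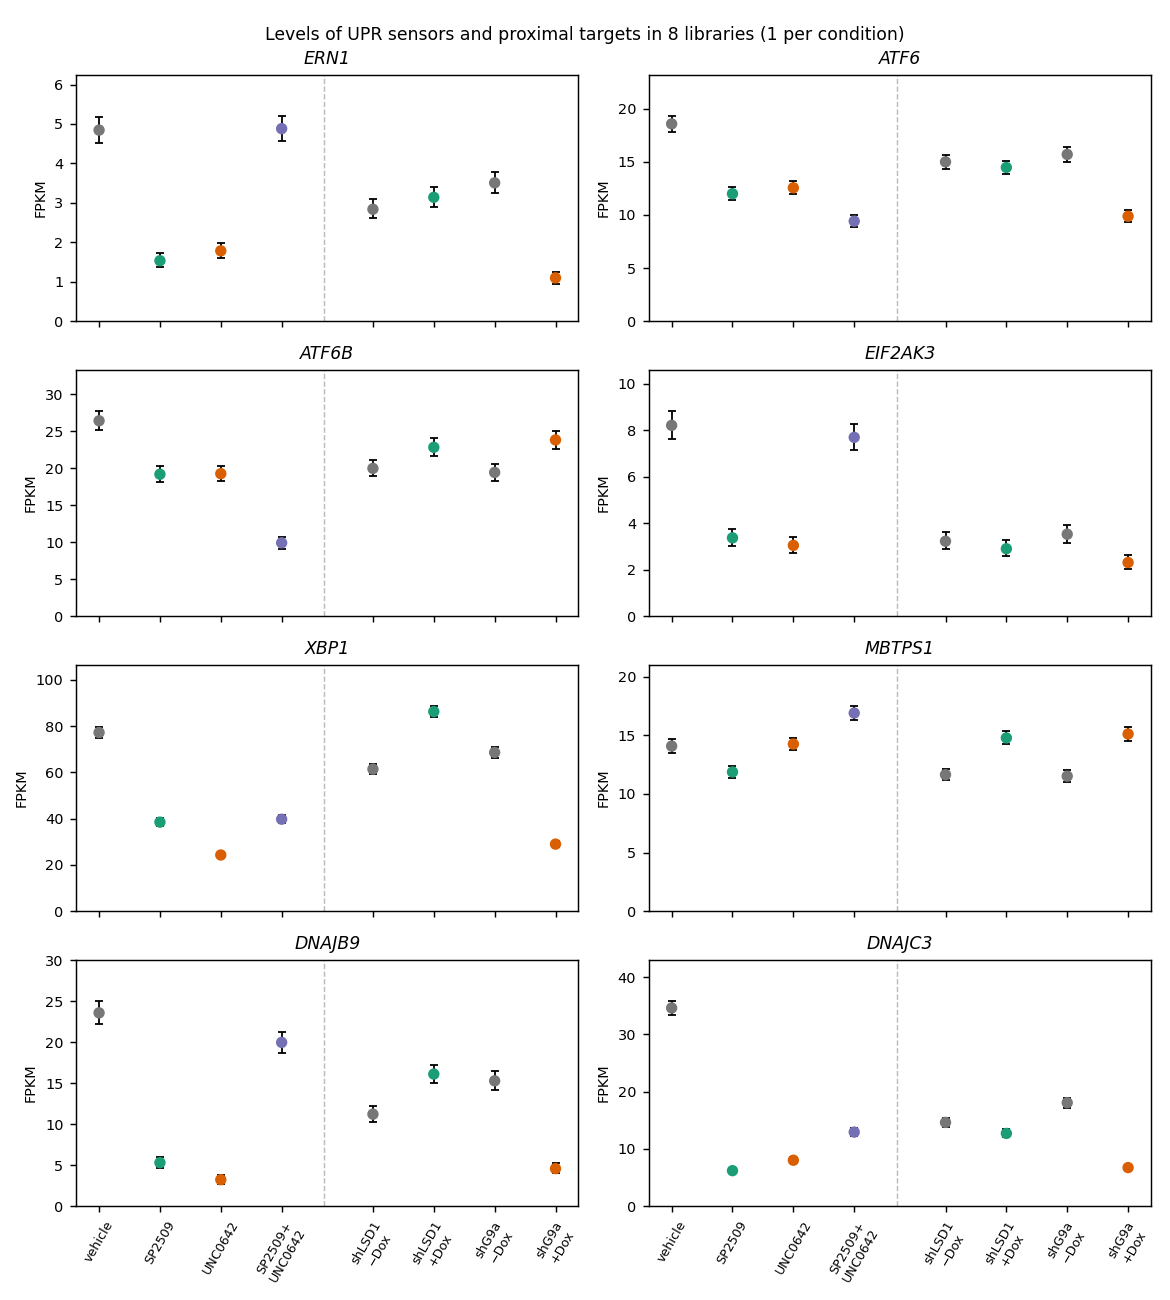
Level of each gene in FPKM (vertical axis, starting at 0) in the 8 libraries (horizontal axis), with 1 point per library and bars for the 95% counting interval; the dashed line separates the arms, whose tables were made separately. ERN1, EIF2AK3 and DNAJB9 were low with either inhibitor alone and near vehicle with both, MBTPS1 stayed between 11.5 and 16.9 FPKM, and XBP1 and DNAJB9 were low in the induced shG9a library but not in the induced shLSD1 library.

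Within a library the order of levels changed mainly in the middle. XBP1 came first everywhere, ERN1 and EIF2AK3 held the last places everywhere, and DNAJC3 moved from the second place with vehicle to the fifth with SP2509 and with UNC0642. Neighbours in this order that did not differ beyond their counting intervals were ATF6 with MBTPS1 and DNAJC3 with DNAJB9 in the SP2509 library, DNAJB9 with EIF2AK3 in the UNC0642 library, and ATF6B with ATF6 in the combination library. In the uninduced shLSD1 library they were ATF6 with DNAJC3, MBTPS1 with DNAJB9, and EIF2AK3 with ERN1. In the induced shLSD1 library they were DNAJB9 with MBTPS1, MBTPS1 with ATF6, and ERN1 with EIF2AK3. In the uninduced shG9a library they were ATF6B with DNAJC3, ATF6 with DNAJB9, and EIF2AK3 with ERN1. No such pair was found in the vehicle library or in the induced shG9a library.

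The first question was how inhibition of LSD1 alone changed the sensors and their targets. With SP2509, 7 of 8 members were downregulated compared to vehicle and 0 were upregulated, where a call required a fold change of at least 1.3 on FPKM plus a pseudocount of 1. Over the 13342 genes tested, 39.9% were called lower and 21.0% higher. DNAJC3 and DNAJB9 changed most among the members, with log2 fold changes of -2.30 for DNAJC3 (interval -2.42 to -2.19) and -1.96 for DNAJB9 (-2.13 to -1.79), followed by ERN1 at -1.21, EIF2AK3 at -1.08, XBP1 at -0.99, ATF6 at -0.59 and ATF6B at -0.44. MBTPS1, at -0.23, was not called. The median over the 8 members was -1.03 and that over all genes tested was -0.21. With TMM scaling, which shifted log2 ratios by 0.30 in this comparison, ATF6 (-0.29) and ATF6B (-0.14) were no longer called, MBTPS1 took the value 0.07, and 24.9% of all genes were called lower and 34.1% higher. ATF6B was also not called after centring on the median (-0.35).

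Inhibition of G9a alone gave calls for the same 7 members. With UNC0642, 7 of 8 members were downregulated compared to vehicle against 16.9% of 13244 genes tested, and 0 were upregulated against 18.2%. DNAJB9 fell by 2.54 on the log2 scale (interval -2.73 to -2.35), from 23.6 to 3.23 FPKM, and 0.0831% of the genes tested had a more negative value. DNAJC3 followed at -1.98, XBP1 at -1.63, EIF2AK3 at -1.19, ERN1 at -1.07, ATF6 at -0.53 and ATF6B at -0.44. MBTPS1 was at 0.02, with an interval from -0.06 to 0.09. The median over the members was -1.13 and that over all genes was -0.01. The SP2509 and UNC0642 comparisons share the vehicle library, so their resemblance is not independent.

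In the combination library the members separated. Compared to vehicle, 4 of 8 members were downregulated against 31.7% of 13907 genes tested, and 0 were upregulated against 31.4%. The 4 were DNAJC3 at -1.35, ATF6B at -1.33, XBP1 at -0.94 and ATF6 at -0.91 on the log2 scale. ERN1 (0.01, interval -0.11 to 0.12) and EIF2AK3 (-0.08, -0.22 to 0.05) were within counting error of vehicle, while DNAJB9 was at -0.23 (-0.35 to -0.11) and MBTPS1 at 0.25 (0.17 to 0.32), neither of them called. The median of the members was -0.57 and that of all genes was -0.02. The share of members called lower was closer to the background here than with either inhibitor alone.

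**Figure D2:**
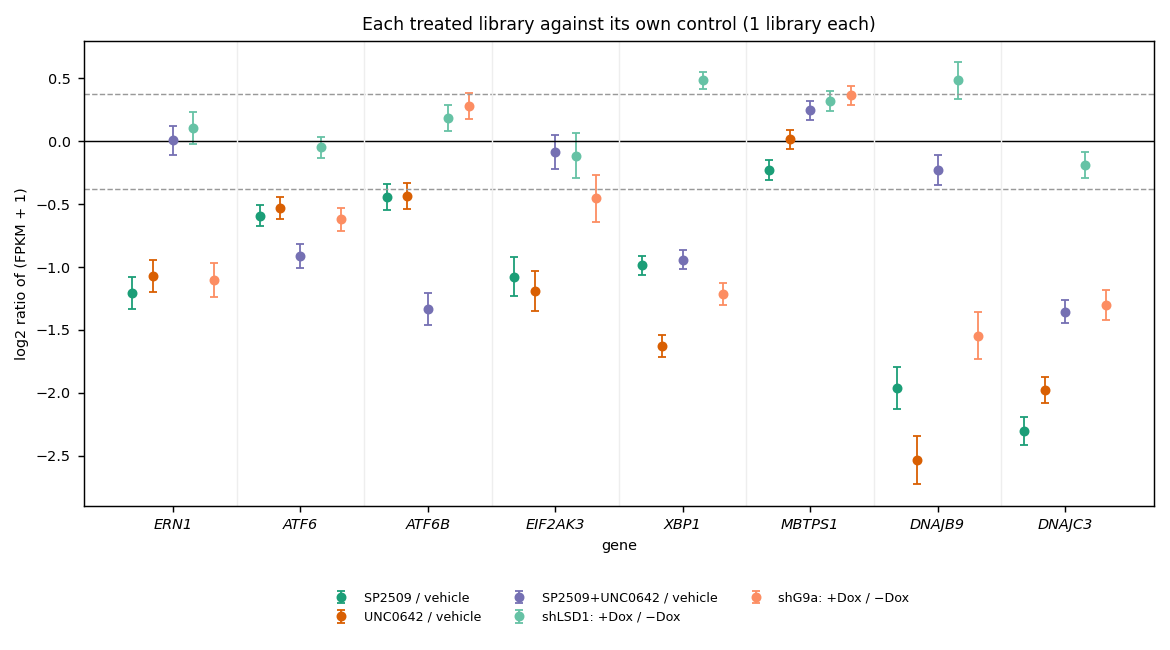
Log2 ratio of FPKM plus 1 (vertical axis) for each gene (horizontal axis) in the 5 comparisons with an own control; points are single ratios of 1 library to 1 library, bars are 95% counting intervals, and dashed lines mark a fold of 1.3. DNAJB9 and DNAJC3 reached the lowest values, at -2.54 and -2.30, and all values for MBTPS1 lay between the dashed lines.

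The combination was also compared directly with each single inhibitor. Compared to SP2509 alone, 5 members were upregulated in the combination, against 41.8% of 13658 genes, and 1 was downregulated, against 24.8%. DNAJB9 rose by 1.73, ERN1 by 1.22, EIF2AK3 by 0.99, DNAJC3 by 0.95 and MBTPS1 by 0.48, and ATF6B was at -0.89. XBP1 was at 0.05 (interval -0.04 to 0.13) and ATF6 at -0.32. DNAJC3, lower than with vehicle, was thus higher than with SP2509. The sign for XBP1 turned to -0.07 after centring and to -0.32 with TMM scaling, neither of them called. After centring on the median, a shift of 0.12, MBTPS1 was at 0.36 and no longer called and ATF6 was at -0.44 and called, so that 4 members were higher and 2 lower. With TMM scaling, a shift of 0.37, the same members were called as after centring, and the background turned to 26.9% higher and 40.2% lower.

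Compared to UNC0642 alone, 5 members were upregulated in the combination, against 27.7% of 13637 genes, and 2 were downregulated, against 27.1%. DNAJB9 rose by 2.31 (interval 2.12 to 2.50), from 3.23 to 20.0 FPKM, a ratio of 6.18, and 99.4% of the genes tested had a lower value. EIF2AK3 rose by 1.10, ERN1 by 1.08, XBP1 by 0.69 and DNAJC3 by 0.63, whereas ATF6B was at -0.89 and ATF6 at -0.38, just past the threshold. MBTPS1 was at 0.23 and not called. XBP1 was thus called higher in the combination than with UNC0642, and was not called against SP2509. These comparisons share the combination library with each other.

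The genetic arm asked the same questions of each enzyme on its own. In the shLSD1 line, 2 of 8 members were upregulated by Dox, against 24.8% of 12970 genes tested, and 0 were downregulated, against 12.3%. These were DNAJB9 at 0.49 (interval 0.34 to 0.63) and XBP1 at 0.48 (0.42 to 0.55). MBTPS1 was at 0.32, ATF6B at 0.18, ERN1 at 0.11, ATF6 at -0.05, EIF2AK3 at -0.11 and DNAJC3 at -0.19. The share called higher, 2 of 8, was near the background, and the median of the members, 0.15, was near that of all genes, 0.13. Relative to the median of well-expressed genes, a shift of 0.11, XBP1 was at 0.37 and DNAJB9 at 0.38 and neither was called, nor were they with TMM scaling, where XBP1 was at 0.34 and DNAJB9 at 0.34. With the mean of the uninduced libraries as control, DNAJB9 was at 0.26 and not called, and XBP1, at 0.40, was called. The background turned to 17.0% higher and 16.6% lower after centring and to 15.3% and 18.4% with TMM scaling. None of the decreases seen with SP2509 was called in this line.

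In the shG9a line, 6 of 8 members were downregulated by Dox, against 17.6% of 13080 genes tested, and 0 were upregulated, against 32.9%. DNAJB9 fell by 1.54 on the log2 scale (interval -1.73 to -1.36), XBP1 by 1.22, ERN1 by 1.10, ATF6 by 0.62 and EIF2AK3 by 0.45, and DNAJC3 had an interval from -1.42 to -1.18. MBTPS1 was at 0.36, just under the threshold, and ATF6B at 0.28, and both were in the direction opposite to the other members. The median over the members was -0.86 and that over all genes was 0.18. The same 6 members were called after centring, a shift of 0.14, and with TMM scaling, a shift of 0.22, under which the background turned from 32.9% higher and 17.6% lower to 22.5% and 22.5%, and to 17.3% and 26.9%. All 6 were also called lower with UNC0642, while ATF6B was called lower with UNC0642 and not in the shG9a line.

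Comparing the lines directly, 1 member differed before induction. Without Dox, DNAJB9 was lower in the shLSD1 line than in the shG9a line, at 11.2 against 15.3 FPKM (-0.41, interval -0.56 to -0.26), 1 of 8 members against 3.04% of 12449 genes called lower, and 0 were called higher, against 4.51%. DNAJC3 (-0.29) and ERN1 (-0.23) were also below the shG9a line, although not called. With Dox, 5 members were higher in the shLSD1 line, against 18.8% of 13174 genes, and 0 were lower, against 18.3%. DNAJB9 was at 1.62, XBP1 at 1.54, ERN1 at 0.98, DNAJC3 at 0.82 and ATF6 at 0.51. EIF2AK3 was at 0.24, MBTPS1 at -0.03 and ATF6B at -0.06, and none of these was called. Subtracting the log2 fold change with Dox in the shG9a line from that in the shLSD1 line gave 2.03 for DNAJB9 (0.49 and -1.54 in the shLSD1 and shG9a lines), 1.70 for XBP1 (0.48 and -1.22), 1.21 for ERN1 (0.11 and -1.10) and 1.11 for DNAJC3 (-0.19 and -1.30), so that the shG9a line had the larger change for each of these. With 1 library per condition these differences of effects were not tested.

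**Figure D3:**
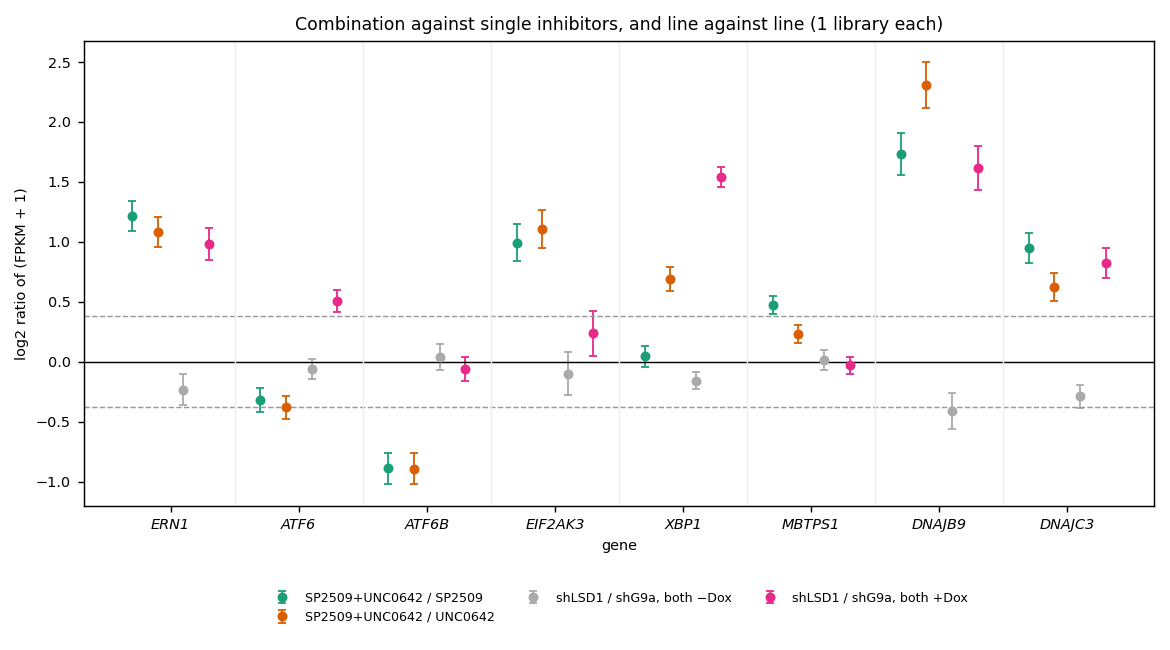
Log2 ratio of FPKM plus 1 (vertical axis) for each gene (horizontal axis), for the combination over each single inhibitor and for the shLSD1 line over the shG9a line without and with Dox; bars are 95% counting intervals and dashed lines mark a fold of 1.3. DNAJB9 had the highest value in 3 of these 4 comparisons, at 1.73, 2.31 and 1.62, ATF6B was at -0.89 against both single inhibitors, and the lines without Dox differed by a fold of 1.3 for DNAJB9 alone.

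Among other genes of the pathway, the chaperone gene HSPA5 was lower in all 5 comparisons with an own control. BiP mRNA was at 1462 FPKM under vehicle, 511 under SP2509, 251 under UNC0642 and 627 under both inhibitors. It was at 1195 FPKM without and 404 with Dox in the shLSD1 line, and at 1551 without and 102 with Dox in the shG9a line. In the induced shLSD1 library HSPA5 was thus at -1.56 on the log2 scale while XBP1 and DNAJB9 were called higher. The calls for XBP1 and DNAJB9 did not hold after centring or with TMM scaling. The counts of the gene lists that follow are to be read against the shares of all genes tested, of which 39.9% were called lower with SP2509, 16.9% with UNC0642, 31.7% with both, 12.3% in the induced shLSD1 line and 17.6% in the induced shG9a line, while 21.0%, 18.2%, 31.4%, 24.8% and 32.9% were called higher. HSPA5 belongs to a list of 15 sensor regulators and cofactors, of which 7 (46.7%) were called lower with SP2509, 3 (20.0%) with UNC0642, 8 (53.3%) with both, 2 (13.3%) in the induced shLSD1 line and 5 (33.3%) in the induced shG9a line, and 0, 0, 2, 5 and 3 were called higher. With SP2509, with UNC0642 and in the shLSD1 line these shares were near the background. FICD, which encodes the enzyme that AMPylates BiP, was at 3.25 FPKM under vehicle, 0.0790 under SP2509 (6 reads), 0.328 under UNC0642 (25 reads) and 1.47 under both.

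The targets assigned to ATF6, largely chaperones and genes of ER-associated degradation, were called lower in most cases. Of 10 tested out of 11, 9 were lower with SP2509, 10 with UNC0642, 8 with both inhibitors, 8 in the induced shLSD1 line and 10 in the induced shG9a line, and none was higher in any of the 5. Their median log2 fold changes were -1.90, -1.39, -1.28, -1.22 and -2.45 in that order. HERPUD1, a component of ER-associated degradation, was at 121 FPKM under vehicle, 15.7 under SP2509, 7.82 under UNC0642 and 40.9 under both. It was at 55.8 FPKM without and 43.2 with Dox in the shLSD1 line, which was not called, and at 69.1 without and 7.99 with Dox in the shG9a line. SDF2L1, an ER luminal co-chaperone, was at 75.9 FPKM with vehicle and at 4.65, 10.7 and 11.7 with SP2509, UNC0642 and both. In the induced shLSD1 line the ATF6 targets were lower while ATF6 itself, at -0.05, was not called.

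The targets assigned to XBP1s, most of which serve translocation into the ER and vesicle transport, had different counts with the single inhibitors and with both, a difference that was not tested. Of 13 tested, 10 (76.9%) were lower and 1 higher with SP2509, against 39.9% of all genes lower, and 5 (38.5%) were lower and 1 higher with UNC0642, against 16.9% lower. For SP2509 with TMM scaling, 8 (61.5%) were lower and 3 (23.1%) higher, against 24.9% and 34.1% of all genes. Some of the calls with UNC0642 lay at the threshold. After centring 4 (30.8%) were lower, against 16.7%, and with TMM scaling 3 (23.1%), against 16.1%. With both inhibitors 6 (46.2%) were higher, against 31.4%, and 1 was lower, although XBP1 itself was called lower. After centring on the median, 4 (30.8%) were higher with both, close to the 29.9% of all genes. With TMM scaling it was 6 (46.2%), against 31.5%. SEC61A1, the channel subunit of the translocon, was at 96.8 FPKM under vehicle, 38.8 under SP2509, 57.8 under UNC0642 and 107 under both. SEC24D, a coat protein of ER-derived vesicles, was at 8.54 FPKM with vehicle and at 2.85, 3.47 and 5.44 with SP2509, UNC0642 and both. Compared to SP2509, 11 of the 13 (84.6%) were higher in the combination and 0 lower, against 41.8% of all genes higher, and with TMM scaling 9 were higher and 1 lower, against 26.9% higher. Compared to UNC0642, 9 (69.2%) were higher and 0 lower, against 27.7% higher. In the induced shLSD1 line 1 of 13 was lower and 0 were higher, whereas in the induced shG9a line 10 (76.9%) were lower, against 17.6%, and 0 higher.

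Genes downstream of PERK and ATF4 were most often lower in the induced shG9a line. There 7 of 7 tested were lower, against 17.6% of all genes, with a median of -2.86 against 0.18. Of 8 tested in the inhibitor arm, 5 (62.5%) were lower and 1 higher with SP2509, against 39.9% and 21.0% of all genes, 6 (75.0%) were lower and 0 higher with UNC0642, against 16.9% and 18.2%, and 5 (62.5%) were lower and 3 (37.5%) higher with both, against 31.7% and 31.4%. In the induced shLSD1 line 3 of 7 (42.9%) were lower and 1 higher, against 12.3% and 24.8%. TRIB3, a pseudokinase induced by ATF4 and CHOP, was at 85.4 FPKM under vehicle, 3.75 under SP2509, 13.8 under UNC0642 and 22.0 under both, and at 80.2 and 10.1 FPKM in uninduced and induced shG9a cells. ATF3, a stress-induced transcription factor, went the other way with SP2509, being at 17.4 FPKM under vehicle, 162 under SP2509, 18.1 under UNC0642 and 100.5 under both. In a list of eIF2α itself (EIF2S1), its other kinases and its phosphatase subunits, of which 6 were tested, 1, 0, 3, 1 and 0 were higher and 0, 0, 2, 1 and 2 were lower with SP2509, UNC0642, both, shLSD1 and shG9a. PPP1R15A, which encodes the stress-induced subunit GADD34 that directs dephosphorylation of eIF2α, was at 77.1 FPKM under vehicle, 289 under SP2509, 59.7 under UNC0642 and 202 under both, and at 180.5 and 19.9 FPKM in uninduced and induced shG9a cells. With SP2509, ATF3 and PPP1R15A were therefore higher while EIF2AK3 and TRIB3 were lower. In the shLSD1 line ATF3 went from 34.2 FPKM without to 14.1 with Dox, and PPP1R15A from 178 to 46.0. Both were called lower there, the direction opposite to that with SP2509. TRIB3, at 70.4 and 63.5 FPKM in that line, was not called. ATF3 was also called lower in the shG9a line, at 35.8 FPKM without and 3.66 with Dox.

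Of 9 other J-domain proteins of the ER, 4 (44.4%) were lower with SP2509 and 2 (22.2%) with UNC0642, near the 39.9% and 16.9% of all genes. With both inhibitors 5 (55.6%) were lower, against 31.7%, and 4 (44.4%) were lower in each induced line, against 12.3% for shLSD1 and 17.6% for shG9a, while 1, 0, 1, 0 and 1 were higher in the 5 comparisons. After centring and with TMM scaling, 7 (77.8%) were lower in the shLSD1 line, against 16.6% and 18.4% of all genes. In the shG9a line 5 (55.6%) were lower under each of these scalings, against 22.5% and 26.9%. DNAJB11, the gene of the co-chaperone ERdj3, was at 21.9 FPKM under vehicle, 5.96 under SP2509, 10.3 under UNC0642 and 15.5 under both, and DNAJC10, the gene of the disulfide reductase ERdj5, was at 15.9, 7.28, 13.0 and 8.71 FPKM. In the induced shLSD1 line DNAJB11 was at -0.50 and DNAJC10 at -0.52 on the log2 scale, whereas DNAJB9 was at 0.49. The value for DNAJB9 was not called after centring or with TMM scaling. Of 9 ER-anchored transcription factors and cargo of the site-1 protease, 7 were tested, of which 4 (57.1%) were lower with SP2509, 3 (42.9%) with UNC0642, 6 (85.7%) with both, 0 in the shLSD1 line and 2 (28.6%) in the shG9a line, against 39.9%, 16.9%, 31.7%, 12.3% and 17.6% of all genes, and 1, 1, 1, 1 and 2 were higher. With TMM scaling 2 were lower and 2 higher with SP2509. SREBF1, the precursor of a lipid-synthesis factor cut by the site-1 protease, was at 51.4 FPKM under vehicle, 15.7 under SP2509, 35.8 under UNC0642 and 13.6 under both, and CREB3L2, an ATF6-like factor, was at 8.57, 2.72, 2.33 and 2.93. MBTPS1 itself was not called in these comparisons.

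Transcripts that IRE1α is described to cleave directly were few at these levels. Of 6 listed, 4 were tested in the inhibitor arm and 3 in the genetic arm, of which 2, 0, 2, 2 and 2 were higher and 0, 0, 1, 1 and 0 were lower with SP2509, UNC0642, both, shLSD1 and shG9a. SCARA3 was at 1.34 FPKM without and 4.15 with Dox in the shLSD1 line, and at 1.11 and 4.60 in the shG9a line, both called higher. In the inhibitor arm it was at 4.07 FPKM under vehicle, 4.82 under SP2509, 3.98 under UNC0642 and 2.59 under both, the last called lower. COL6A1 was at 0.896 FPKM under vehicle, 1.91 under SP2509, 1.24 under UNC0642 and 2.08 under both, higher with SP2509 and with both. It was at 1.60 without and 0.845 with Dox in the shLSD1 line, which was called lower, and at 1.89 and 1.75 in the shG9a line.

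**Figure D4:**
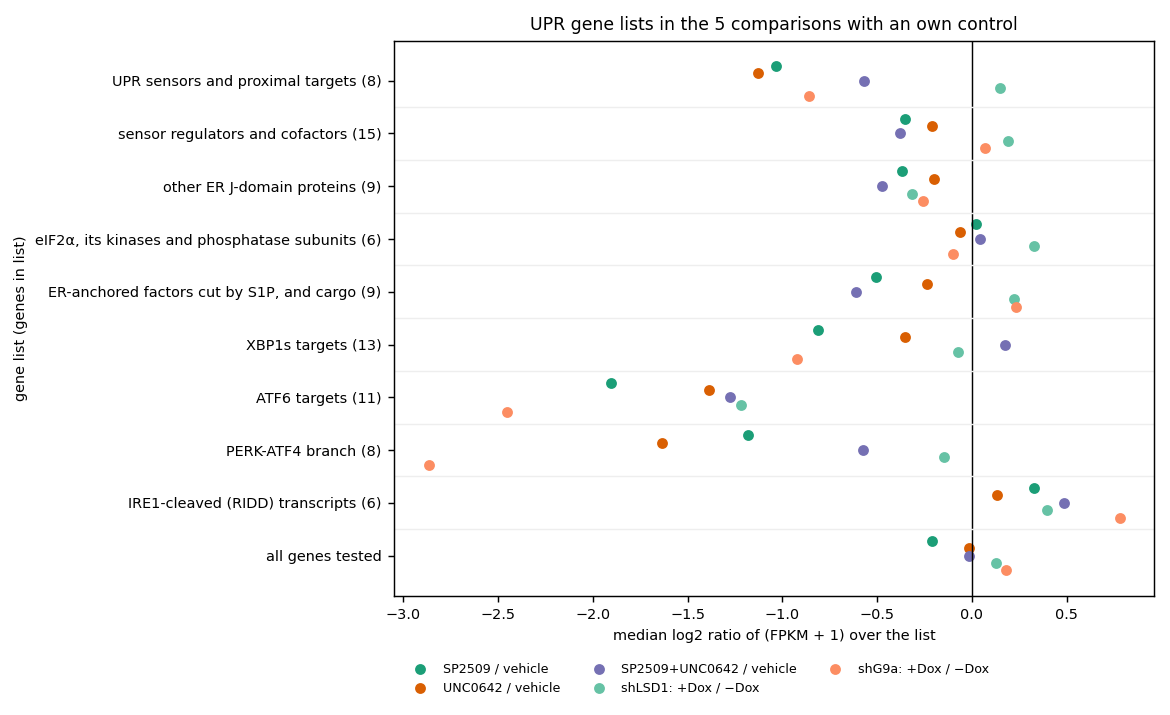
Median log2 ratio of FPKM plus 1 (horizontal axis) over the 8 members, over 8 further UPR gene lists and over all genes tested (vertical axis, with the number of genes in each list), for the 5 comparisons with an own control. Points are medians over genes of 1 ratio each, without error bars since each condition was 1 library. In the induced shG9a line the ATF6 targets were at -2.45, the PERK-ATF4 branch at -2.86 and the members at -0.86, while in the induced shLSD1 line the members were at 0.15.

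Finally, the patterns of the members over the 8 libraries were compared by Pearson's r of log2 FPKM plus 1, centred within each arm. The libraries are those compared above, with the same vehicle and uninduced libraries, so these values describe likeness and have no p-value. Among the members, ERN1 with DNAJB9 (r = 0.96), EIF2AK3 with DNAJB9 (r = 0.94) and ERN1 with EIF2AK3 (r = 0.91) were most alike, and ATF6 with MBTPS1 was the most opposed pair (r = -0.52). The closest of 4395 other protein-coding genes at 5 FPKM or more in all libraries were then picked for each member. Picking the highest r of so many genes over 8 libraries gives high values by construction, and no background of r was computed. MBTPS1, the member that varied least, also reached 0.988. The genes are therefore only listed, and a shared function was not tested. ERN1 was most like MTHFD2 (0.990) and CEBPG (0.984). DNAJB9 was also most like MTHFD2 (0.953), followed by SARS (0.931). XBP1 was most like PHGDH (0.995) and PRKRA (0.985). DNAJC3 was most like SYVN1 (0.992) and UNC5B (0.986). EIF2AK3 was most like OSBP (0.974) and SUPV3L1 (0.963), ATF6 most like SLC35F6 (0.994) and ARHGAP35 (0.979), ATF6B most like TRIM44 (0.996) and TWISTNB (0.991), and MBTPS1 most like RBM38 (0.988) and SELENOT (0.987).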

How the data were processed

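RNA from 8 Kyse510 libraries was sequenced by the authors as paired-end reads of 150 bases, and they deposited FPKM values in 2 tables, 1 for each arm, mapped to GRCh38 per the labels. The aligner, the counting tool and the use of strand are not given in the sources used here. Groups were taken from the sample titles, and doses and times from the description of the series. The 8 members and all gene lists were chosen with earlier results of these data known.

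Reads were recovered from the FPKM values deposited by the authors: in single-exon genes of known length (GENCODE 44) values within a library are whole multiples of what 1 read is worth, from which its total follows, and each other gene was given a length at which all its values were whole reads. The totals were 15662035 to 17889466, and the recovered reads summed to 99.59% to 99.77% of them. Reads served only for counting intervals and 1 alternative, and FPKM for everything else. A comparison used the log2 ratio of FPKM with a pseudocount of 1, over genes with at least 1 FPKM in at least 1 of the 2 libraries, and a gene was called at a fold of at least 1.3, the fold threshold in the study's methods. No count test was a main result and no p-value is given, since each condition was 1 library. Intervals (95%) were exact Poisson for levels and exact binomial for ratios, and cover counting error only.

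Genes named outside the members were the 2 of each list with the largest median absolute log2 fold change over the 5 comparisons with an own control, HSPA5, KDM1A and EHMT2, and the 2 genes most like each member. Single genes named in the closing section between EHMT2 and ATF6B were chosen after their values were seen. The alternatives were a pseudocount of 0.1, no filter, at least 5 FPKM, a fold of 2, centring on the median, TMM scaling, an added exact binomial threshold of 0.05 on recovered reads, and both uninduced libraries averaged as control. The TMM scaling used here subtracted an unweighted trimmed mean of log2 FPKM ratios, taken without a pseudocount. It covered all genes detected in both libraries, without the filter on low values, and so differs from the usual weighted form on counts.

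The procedure was tested on simulated data for SP2509 over vehicle. All 4 totals came back exactly, as did the reads of 94.7% of 29493 genes. Calls in the right direction were made for 98 of 100 genes changed by a fold of 2 and 96 of 100 changed by 1.5, and 777 of 12788 genes left unchanged (6.08%) were also called. The changed genes were drawn only from those with at least 2 FPKM in both real libraries, so recovery at lower levels was not measured. The spread between replicates could not be measured in the real libraries, so the rates of right and wrong calls in them were not tested. Promoter windows were taken from RefSeq (GRCh38.p14). Analyses were run in Python 3.11.15 with numpy 2.4.6, scipy 1.17.1, pandas 2.3.3 and matplotlib 3.10.9.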

Additional observations from a re-analysis of the deposited data

Results flagged for a closer look

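A pair of members, XBP1 and DNAJB9, were called in opposite directions with Dox in the shRNA lines. Each line was 1 library without and 1 with Dox, and the difference was not tested. ERN1 also had opposite signs, at 0.11 in the shLSD1 line and -1.10 in the shG9a line, but was not called in the former. XBP1 had a log2 fold change of 0.48 in the shLSD1 line and of -1.22 in the shG9a line. DNAJB9 had a log2 fold change of 0.49 in the shLSD1 line and of -1.54 in the shG9a line. In the shLSD1 line neither was called after centring or with TMM scaling, and DNAJB9, at 0.26, was not called against the mean of the uninduced libraries. Without Dox, XBP1 was at 61.4 FPKM in the shLSD1 line and 68.6 in the shG9a line, and DNAJB9 was at 11.2 and 15.3 FPKM.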

How the results depend on the processing

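Of 130 counts of members under the alternatives, 115 stayed within 1.5 times the reported count and 15 did not, and none of the called log2 fold changes changed sign. Of 232 values of the members' log2 fold changes under the alternatives, 66 lay outside the counting interval of the reported value. With a fold threshold of 2, the members called lower were 4 with SP2509 and 2 with the combination over vehicle, 0 for the combination over SP2509, 0 over UNC0642 and 0 for the shLSD1 line over the shG9a line without Dox, and the members called higher were 0 in the induced shLSD1 line, 2 for the combination over SP2509, 3 over UNC0642 and 2 for the shLSD1 line over the shG9a line with Dox. After centring on the median and with TMM scaling, 0 members were called higher in the induced shLSD1 line and 2 were called lower for the combination over SP2509, by the construction of a shift of all ratios. With the mean of the uninduced libraries as control, 1 member (XBP1) was called higher in the induced shLSD1 line, DNAJB9 being no longer called, and with a pseudocount of 0.1, 1 (MBTPS1) in the induced shG9a line. Adding the exact binomial threshold on recovered reads changed no count of members. No paired analysis was possible because the labels carry no replicate numbers and each condition was 1 library, and no library could be left out for the same reason.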

Other observations

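ATF6B and EHMT2, both lower in the combination library, lie 200489 bases apart on chromosome 6, and the genes from EHMT2 to ATF6B were examined after these values were seen. Of 7 protein-coding genes tested there, 4 were lower and 0 higher in the combination compared to vehicle, with a median log2 fold change of -0.40, against 31.7% of all genes called lower. Without ATF6B and EHMT2, which prompted the look, 2 of 5 were lower, with a median of -0.16. The 4 were ATF6B at -1.33, ZBTB12 at -0.96, EHMT2 at -0.93 and NELFE at -0.40, whereas SKIV2L was at -0.16, STK19 at 0.06 and DXO at 0.27. C2-AS1, also tested there and not protein-coding, was called higher at 0.74, with 1.09 FPKM against 0.251 under vehicle. Over all 8 genes tested there the median was -0.28. With SP2509 and with UNC0642 alone, 2 of 7 were lower and 0 higher, with medians of -0.21 and -0.19.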
